A study of Mus musculus with 6 samples.

Results

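The genes for the proteins of the cytosolic ribosome were followed in cardiomyocytes (CMs) of the mouse left ventricle around birth. Members were chosen by symbol: Rpl or Rps followed by a digit, or Rplp0, Rplp1, Rplp2 and Rpsa, without the Rps6k kinases and without symbols carrying -ps. The rule took 87 of 27998 genes. Of these, 43 encode proteins of the large subunit, 31 of the small subunit and 3 of the P stalk, and 9 are paralogs of such genes. Rps19bp1 matched by its letters only and encodes a protein that binds Rps19. The 77 genes of the subunits and the stalk are called core members below.

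CMs of C57BL/6J mice were collected on embryonic day 16.5 (E16.5) and on postnatal days 1 (P1) and 5 (P5). Fixed cells were sorted for the muscle protein MYH1 and by DNA content into diploid (2n) and tetraploid (4n) CMs, which gave 6 single-cell libraries, a 2n and a 4n library for each age. The title of the 4n library from the embryo gives 16.5, whereas its age label gives 16.6. The labels name no treatment and no engineered allele in any group. Cells of 3 litters, sorted separately, were pooled for each library, the 2n and 4n cells of an age from the same litters, so that each condition is 1 library without a replicate and the litters cannot be told apart. The gate reads total DNA, and a cell with 1 tetraploid nucleus passes it as does a cell with 2 diploid nuclei.

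A CM was a cell with at least 1 UMI (a counted RNA molecule) of each of Tnni3, Tnnt2, Tnnc1 and Actc1, which held for 30733 of 31156 cells. The libraries held 3654 to 7340 CMs, 13070343 to 19665830 UMIs and a median of 1831 to 4658 UMIs per CM. The 4 genes that define a CM here took 2.54% to 3.18% of the UMIs. The E16.5-4n and P1-4n libraries stood apart in markers of other cells: the 8 fibroblast markers took 0.0796% and 0.0947% of their UMIs, against 0.0133% to 0.0360% in the other 4 libraries. All 8 were detected in every library, whereas the leukocyte gene Ptprc and the epicardial gene Upk1b were at 0 in E16.5-2n. Erythroid genes took 1.04% in E16.5-4n and 0.165% to 0.513% elsewhere. Of 30652 distinct cell barcodes, 499 occurred in 2 or more libraries, with 17 to 62 shared by each pair.

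The ribosome reads mRNA into protein. Its small subunit holds the mRNA and its large subunit joins the amino acids, and most proteins of the particle are present once in it. Their mRNAs are short, abundant and known for a terminal oligopyrimidine (TOP) motif, a run of pyrimidines that begins with a C at the very start of the mRNA and through which mTOR and Larp1 control translation. Assembly in the nucleolus needs a further set of biogenesis factors. A few ribosomal proteins have paralogs with restricted use, and Rpl3l, a paralog of Rpl3, is known from heart and skeletal muscle.

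RefSeq promoter windows (GRCm38.p6, 250 bases before to 50 after the annotated start) were found for 66 of the 87 members. A pyrimidine run was counted from a C within 5 bases of an annotated start and had to be at least 5 bases long. Such a run stood in 30 of these 66 genes (45.5%) and in 21.2% of all 27025 genes with windows. Of the 5 short motifs searched on both strands, CCGGAA, the core of ETS factor sites, was found in 36 members (54.5%) and in 16.7% of all genes. AAGATGG, part of the YY1 site, was found in 15.2% of members and 7.28% of all genes, and GCGCATG, part of the NRF1 site, in 12.1% and 4.41%. TATAAA, the TATA box, stood in 10.6% and 15.7%, and the E-box CACGTG in 9.09% and 8.09%. None of these 5 motifs contains another, a match is a description of the letters only, and a gene without one merely lacks these letters in this window. The starts of 8 members whose levels are described below are shown, since they set genes with a run beside genes without. Each sequence holds 15 bases before and 15 after the annotated start, 5′ to 3′. Capitals show the pyrimidine run as counted from the C nearest the start among those that begin at least 5 pyrimidines. Further pyrimidines can stand directly before it.
Rpl38 (chr11:114668565-114668594, plus strand): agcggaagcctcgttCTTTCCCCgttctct
Rps9 (chr7:3704026-3704055, plus strand): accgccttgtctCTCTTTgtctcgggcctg
Rps27 (chr3:90213634-90213663, minus strand): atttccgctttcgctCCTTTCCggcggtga
Rps27l (chr9:66946071-66946100, plus strand): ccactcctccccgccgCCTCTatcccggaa
Rpl22l1 (chr3:28805493-28805522, plus strand): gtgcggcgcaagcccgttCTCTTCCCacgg
Rpl4 (chr9:64173372-64173401, plus strand): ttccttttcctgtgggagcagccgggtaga
Rpsa (chr9:120127751-120127780, plus strand): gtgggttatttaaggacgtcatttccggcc
Rpl3l (chr17:24727811-24727840, plus strand): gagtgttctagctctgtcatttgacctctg
In Rpl38 and Rps27 the run was counted from the annotated start itself, with further pyrimidines directly before it, whereas Rpl4, Rpsa and Rpl3l had no such run. In Rpl4 a stretch of pyrimidines lies mostly before the positions searched. A gene counted without a run can thus hold one nearby, and the starts used in these CMs were not tested. Both kinds of core members were lower at P1 than at E16.5 in CPM, though not under the median of ratios described below, and this was not tested. In CPM (UMIs of a gene per 1000000 UMIs of the CMs in a library), the 27 core members with a run had a median log2 ratio of P1 to E16.5 of -0.26 in 2n and -0.19 in 4n CMs, and the 30 without had -0.31 and -0.30.

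The share of all UMIs taken by members was compared first. In 2n CMs it was 11.5%, 9.52% and 8.50% over the 3 ages, and in 4n CMs 12.1%, 10.5% and 8.85%. It was thus lower at each later age and higher in 4n than in 2n at each age, as a share of total UMIs. Exact binomial 95% intervals were narrow, for example 9.50% to 9.53% in P1-2n, and cover counting error only. With 1 library per condition no test between conditions was run, and how far animals differ is unknown.

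Median shares per cell gave the same order, with 11.5%, 9.36% and 8.39% in 2n and 12.0%, 10.4% and 8.79% in 4n CMs. Cells spread widely around these medians: the 5th and 95th percentiles were 8.95% and 14.8% in E16.5-2n and 6.58% and 11.1% in P5-4n. Because the libraries differ in depth, CMs with 2000 to fewer than 4000 UMIs were also compared on their own. Their shares were 11.4%, 9.28% and 8.32% in 2n and 12.2%, 10.5% and 8.75% in 4n CMs, in the same order as before.

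The 423 cells that did not meet the CM definition had ribosomal shares of 11.1% to 16.7%, above the CMs in each of the 6 libraries. CMs with 3 or more UMIs of fibroblast, endothelial, mural, immune or epicardial markers were left out in a further comparison, in which Acta2 and Cspg4 were not counted because Acta2 is abundant in these CMs. This took away 1098 of 4880 CMs in E16.5-4n and 1613 of 4747 in P1-4n, against 144 to 493 in the other libraries. The shares of E16.5-4n and P1-4n were then 11.7% and 9.93%. It was not tested whether such cells are doublets or carry free RNA.

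The large and the small subunit were in near-constant proportion. Large subunit genes took 5.82% of UMIs in E16.5-2n and 4.16% in P5-2n, and small subunit genes 4.86% and 3.61%. The P stalk genes differed less, with 0.624% and 0.543%. From E16.5-2n to P5-2n their summed log2 ratio was -0.20, against -0.49 for the large and -0.43 for the small subunit. UMIs of the large subunit and the stalk together were 1.33-fold those of the small subunit in E16.5-2n and 1.28-fold to 1.30-fold in the other 5 libraries. The 16 ribosomal symbols with -ps, left out by the rule, took 0.0803% to 0.107%.

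**Figure D1:**
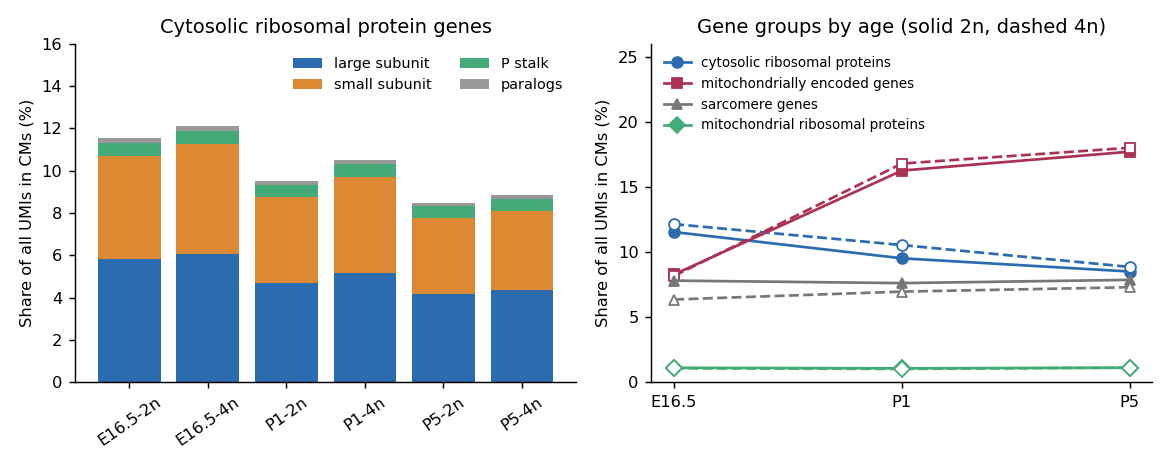
Left, share of all UMIs in CMs taken by large subunit, small subunit, P stalk and paralog genes in the 6 libraries (stacked bars, percent; Rps19bp1 not drawn). Right, shares of 4 gene groups by age, with solid lines for 2n and dashed lines for 4n. As shares of total UMIs the cytosolic ribosomal proteins stood at 11.5% and 12.1% at E16.5 and at 8.50% and 8.85% at P5, and the mitochondrially encoded genes at 8.28% and 8.16%, then at 17.7% and 18.0%.

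A share depends on what else is counted. The 13 mitochondrially encoded mRNAs took 8.28%, 16.3% and 17.7% of UMIs in 2n and 8.16%, 16.8% and 18.0% in 4n CMs, while 17 sarcomere genes took 6.35% to 7.86%. Summed over members, the log2 ratio of P1 to E16.5 in CPM was -0.28 in 2n and -0.21 in 4n CMs. With the mitochondrially encoded genes left out of the total, it was -0.15 and -0.06. Scaled by the median of ratios, which sets the typical gene to no difference, it was 0.05 and 0.13. Against CPM this scaling moves every gene by 0.33 from E16.5 to P1 in both ploidies and by 0.11 (2n) and 0.17 (4n) from P1 to P5. The ribosomal proteins were therefore lower at P1 as a share of total UMIs, slightly higher relative to the typical gene, and lower relative to the typical gene of at least 10000 UMIs described below.

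Single members were set against all genes with at least 100 UMIs over the 6 libraries. Of the 87 members 85 passed, among them all 77 core members. Rpl39l, with 21 UMIs, and Rpl10l, with 0, did not. From E16.5 to P1 the median member had a log2 ratio of -0.29 in 2n CMs, against -0.34 for all 11412 genes, and -0.23 in 4n CMs, against -0.29. In 2n CMs 5 of 85 members were at least 1.5-fold lower at P1, against 33.3% of all genes, and 1 was at least 1.5-fold higher, against 6.41%. In 4n CMs 6 members were lower and 1 was higher, against 30.9% and 8.24%. In CPM 81 members in 2n and 72 in 4n lay below 0, as did 74.2% and 70.8% of all genes, whereas under the median of ratios 53 and 59 lay above 0. The share of all genes above 0 under that scaling was not counted. Their medians were then -0.01 in 2n and 0.04 in 4n CMs. Members lay close together: the lower and upper quartiles of their ratios were -0.42 and -0.18 in 2n CMs, where those of all genes were -0.73 and 0.02.

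From P1 to P5 the members stood below the typical gene, with medians of -0.18 against -0.08 in 2n and -0.27 against -0.18 in 4n CMs. None of the 85 members was 1.5-fold lower at this step, against 11.2% of all genes in 2n and 19.9% in 4n. None was 1.5-fold higher in 2n, against 10.8%, and 1 was in 4n, against 5.77%. Under the median of ratios the summed ratios of this step were -0.05 and -0.08. Over the whole span from E16.5 to P5, 27 members in 2n and 29 in 4n were at least 1.5-fold lower in CPM, against 40.8% and 46.1% of all genes, and 1 member was higher in each ploidy, against 8.69% and 6.68%.

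More abundant genes gave a further background, which was set by a floor only and not matched to the levels of the members. At least 10000 UMIs were reached by 1184 genes, 81 of them members. From E16.5 to P1 4 of these 81 were 1.5-fold lower in 2n and 5 in 4n CMs, against 20.9% and 21.5% of the 1184 genes, and none was higher, against 6.59% and 7.69%. From P1 to P5 none was 1.5-fold lower, against 4.73% in 2n and 5.07% in 4n, or higher, against 3.12% and 4.14%. Between ploidies none was 1.5-fold lower in 4n, against 0.507%, 0.0845% and 0.338% over the 3 ages, or higher, against 3.63%, 2.45% and 2.79%. The medians of these 81 members from E16.5 to P1 were -0.28 in 2n and -0.21 in 4n CMs, against -0.22 and -0.17 for the 1184 genes, so that here members stood below the typical gene. From P1 to P5 they were -0.18 and -0.28, against -0.06 and -0.02, and between ploidies 0.07, 0.15 and 0.05 over the 3 ages, against -0.06, -0.03 and 0.01.

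Small differences in the same direction were common. In CPM 71 of 85 members were lower at both steps in 2n CMs (83.5%, against 42.8% of all genes) and 68 in 4n CMs (80.0%, against 46.8%), but scaled by the median of ratios these counts were 25 (29.4%, against 21.9%) and 18 (21.2%, against 21.8%). In CPM 59 of 85 members were highest in E16.5-4n and 58 lowest in P5-2n. The shares of all genes with these extremes were not counted, nor were the extremes counted under the median of ratios, so that these 2 counts have no background here. Most genes were lower in CPM at P5 than at E16.5, 75.4% in 2n and 79.2% in 4n CMs. The plot of member ratios shows the narrow band of members inside the wide range of all genes.

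**Figure D2:**
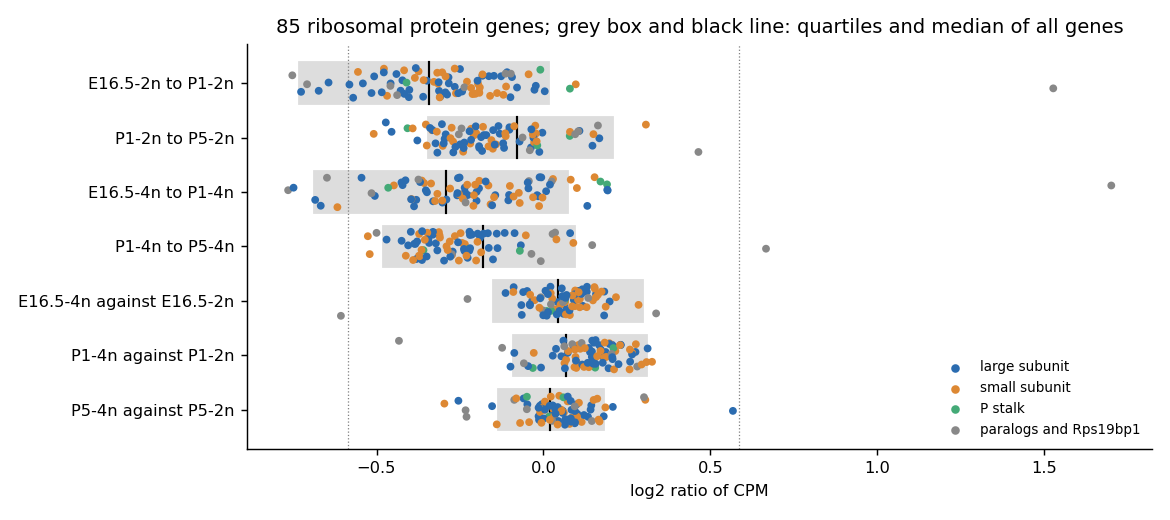
Log2 ratios of CPM for the 85 ribosomal protein genes in 7 comparisons (points, coloured by class, spread vertically for visibility), with the quartiles and the median of all genes as grey boxes and black lines and the 1.5-fold limits dotted. Members lie near the median of all genes, at -0.29 against -0.34 from E16.5-2n to P1-2n, and Rpl3l stands far to the right in that comparison (1.53); scaled by the median of ratios all points of this comparison move right by 0.33.

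Among core members the most abundant was Rps29, a protein of the small subunit, with 4133, 3642 and 3562 CPM in 2n and 4390, 3961 and 3819 CPM in 4n CMs over the 3 ages. Its highest library was 1.23-fold its lowest. Each UMI stands for 1 molecule in a 3′ library, and CPM was not corrected for length. Rpl41, the shortest protein of the ribosome, ranged from 2586 to 3330 CPM, and Rpl37a, a zinc-binding protein of the large subunit, from 1976 to 2595. Rpl38, which is known for a role in the translation of Hox mRNAs, went against the common order in CPM: it had 1981, 1944 and 2183 CPM in 2n and 1999.3, 2190 and 2314 CPM in 4n CMs, and was thus highest at P5 in both.

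The P stalk recruits the factors that drive elongation. Its scaffold Rplp0 had 2299, 1730 and 1305 CPM in 2n and 2336, 1692 and 1319 CPM in 4n CMs. Rplp1 and Rplp2, which bind Rplp0 as dimers, differed less, with 2338 to 2749 CPM and 1596 to 1845 CPM over the 6 libraries, each highest in P1-4n. From E16.5-2n to P5-2n the log2 ratio was -0.82 for Rplp0 (interval -0.84 to -0.79), 0.06 for Rplp1 (0.04 to 0.08) and 0.07 for Rplp2 (0.04 to 0.09). The scaffold and its partners thus moved apart in these libraries under any scaling, since a scaling moves all 3 alike. Rplp0 has a coding length of 951 bases, Rplp1 of 342 and Rplp2 of 345. Longer core members were also the lower ones from E16.5 to P1, as described below, and the part of length in this difference was not tested.

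At least 1.5-fold lower from E16.5 to P1 in both ploidies were Rpl3 and Rpl4, which join the large subunit early in its assembly, and the paralogs Rpl22l1 and Rpl7l1. Rpl4 had 1393, 842 and 648 CPM in 2n and 1331, 838 and 682 CPM in 4n CMs. Its log2 ratio of P1 to E16.5 was -0.73 (-0.76 to -0.69) in 2n and -0.67 (-0.70 to -0.64) in 4n CMs. Rpl3 had 1399, 895 and 708 CPM in 2n and 1405, 836 and 717 CPM in 4n CMs. Both were lowest at P5, and the 2n and 4n values of an age lay close together.

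Other members passed the limit in 1 ploidy only, and whether the ploidies differed was not tested. Rpl15 was -0.67 in 2n and -0.43 in 4n CMs on the log2 scale. Rps6, the target of the S6 kinases, was -0.56 and -0.62, and Rpl6 -0.57 and -0.68. The 2n values of Rps6 and Rpl6 lay just inside the limit of 0.58.

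A few core members were level or higher at P1 in CPM. Rps9, which helps to keep decoding accurate, had 1482, 1584 and 1241 CPM in 2n and 1582, 1696 and 1310 CPM in 4n CMs, and was highest at P1 in both. Rpl27 and Rpl36, both of the large subunit, had the highest ratios of P1 to E16.5 among core members in 4n CMs, 366 to 418 CPM and 1417 to 1617 CPM. In 2n CMs Rpl27 had 376 and 356 CPM, and Rpl36 1426 and 1430.

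From P1 to P5 other members stood at the ends. Rpsa, a small subunit protein also known as a laminin receptor, had 1328, 994 and 1229 CPM in 2n and 1291, 1092 and 1162 CPM in 4n CMs, so that it was lowest at P1 in CPM, and in 2n CMs only under the median of ratios. Rps27 had 2122, 1857 and 1305 CPM in 2n and 2376, 2129 and 1484 CPM in 4n CMs, with log2 ratios of P5 to P1 of -0.51 and -0.52. Rpl10, which joins the large subunit late, in the cytoplasm, had 1440, 963 and 694 CPM in 2n and 1381, 1055 and 801 CPM in 4n CMs.

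The length of the coding sequence ran with the difference between E16.5 and P1. Over the 77 core members, with annotated coding lengths (GENCODE vM21) of 75 bases in Rpl41 to 1257 bases in Rpl4, Spearman's rho between coding length and log2 ratio was -0.68 in 2n and -0.67 in 4n CMs (Pearson's r -0.67 and -0.69). In 2n CMs the 27 shortest genes (up to 405 bases) had a median ratio of -0.19 in CPM, the 25 of middle length -0.26, and the 25 longest (from 582 bases) -0.46. In 4n CMs the medians were -0.09, -0.21 and -0.40. Other genes with at least 100 UMIs and coding lengths in the same ranges had -0.21, -0.38 and -0.38 in 2n CMs. In 4n CMs they had -0.13, -0.33 and -0.32. In these genes too the shortest were the least low. Longer members were the lower ones in both ploidies, and scaling leaves this order as it is because it moves all genes of a comparison alike.

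The same order held between ploidies at P1, where rho was -0.69 for the ratio of 4n to 2n and the medians were 0.20, 0.16 and 0.07 from short to long. Over all CMs it was weaker elsewhere: rho was -0.44 between ploidies at E16.5 and -0.23 at P5, and -0.27 (2n) and 0.09 (4n) from P1 to P5. The comparisons share libraries and the genes share the depth of a library, so these values are a description.

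In the 1085 other genes with at least 10000 UMIs and a coding length, rho was -0.10 in 2n and -0.11 in 4n CMs from E16.5 to P1, and -0.22 and -0.14 from P1 to P5. Between ploidies it was -0.19, -0.26 and -0.06 over the 3 ages. The values of these genes lay nearer 0 than those of the members in 6 of 7 comparisons, P1-4n to P5-4n being the exception and P1-2n to P5-2n a close one, and the difference was not tested. Over all other genes with at least 100 UMIs and a coding length, rho was 0.03 and -0.01 from E16.5 to P1. For these it was -0.002 and -0.07 from P1 to P5, and 0.21, 0.13 and 0.04 between ploidies over the 3 ages. Without the 5 longest core members, rho from E16.5 to P1 was -0.62 and -0.60. In CMs of 2000 to fewer than 4000 UMIs it was -0.66 and -0.69 at this step, -0.37 and -0.04 from P1 to P5, and -0.46, -0.73 and -0.45 between ploidies over the 3 ages, the value at P5 lying farther from 0 than over all CMs. In the 25 core members without a 100-base stretch in common with another gene it was -0.74 and -0.76 from E16.5 to P1. With the length of the whole transcript in place of the coding length it was -0.42 and -0.38. That length is of an annotated transcript chosen for each gene, such as 5179 bases in Rps15a, and the transcripts present in these CMs were not determined. Mean CPM itself had a rho of -0.11 with coding length. The part that RNA integrity may have in this order was not tested.

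**Figure D3:**
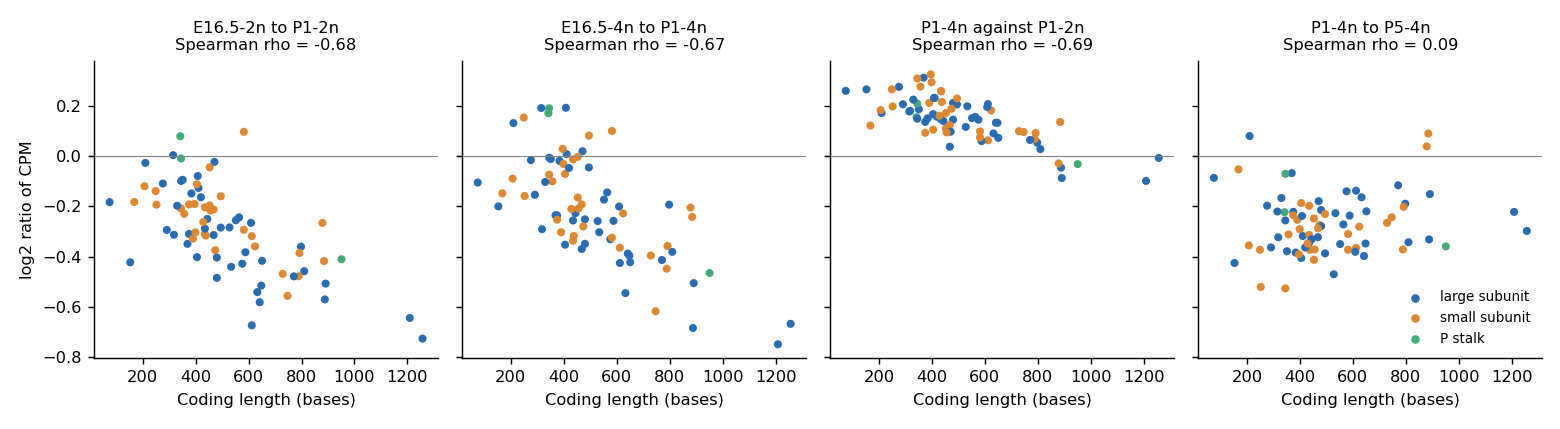
Log2 ratio of CPM against annotated coding length in bases for the 77 core members (points, coloured by subunit) in 4 comparisons. Longer genes have lower ratios from E16.5 to P1 in 2n and 4n CMs (Spearman's rho -0.68 and -0.67) and between ploidies at P1 (-0.69), and no such slope is seen from P1-4n to P5-4n (0.09).

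Rpl3l takes the place of Rpl3 in part of the ribosomes of adult heart and skeletal muscle. Its gene lies on chromosome 17 (24727820 to 24736143, plus strand, GRCm38) and Rpl3 on chromosome 15 (80077791 to 80091868, minus strand). Rpl3l had 3.15, 9.06 and 12.5 CPM in 2n CMs, from 46, 149 and 224 UMIs, and 2.07, 6.71 and 10.7 CPM in 4n CMs, from 27, 132 and 196 UMIs. It was higher at each later age in both ploidies, in CPM and, since that scaling only adds to these ratios, under the median of ratios.

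The log2 ratio of P1 to E16.5 was 1.53 (1.04 to 2.04) in 2n and 1.70 (1.09 to 2.35) in 4n CMs, and that of P5 to P1 was 0.46 (0.16 to 0.77) and 0.67 (0.34 to 1.00). The intervals of both steps lay above 0. The 4n value was below the 2n value at each age, with log2 ratios of -0.61 (-1.35 to 0.11), -0.43 (-0.78 to -0.09) and -0.23 (-0.51 to 0.05). The intervals at E16.5 and at P5 include 0.

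Rpl3l was a minor form throughout. Of the UMIs of Rpl3 and Rpl3l it made up 0.224%, 1.00% and 1.74% in 2n and 0.147%, 0.796% and 1.46% in 4n CMs. A UMI of Rpl3l was found in 0.790%, 1.99% and 4.83% of 2n and in 0.553%, 2.74% and 5.17% of 4n CMs, at median depths of 2240, 1831 and 3759 and of 2185, 3187 and 4658 UMIs per CM, on which these shares depend. None of the 423 cells outside the CM definition had one, which allows a share of up to 0.709%. These cells held 514213 UMIs in all, in which the levels of the CMs would give 3.29 Rpl3l UMIs. A count of 0 was taken to allow 3, which is close to that value, and whether these cells differ from the CMs was not tested. The last 400 bases of its transcript had no 100-base stretch in common with another annotated gene.

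**Figure D4:**
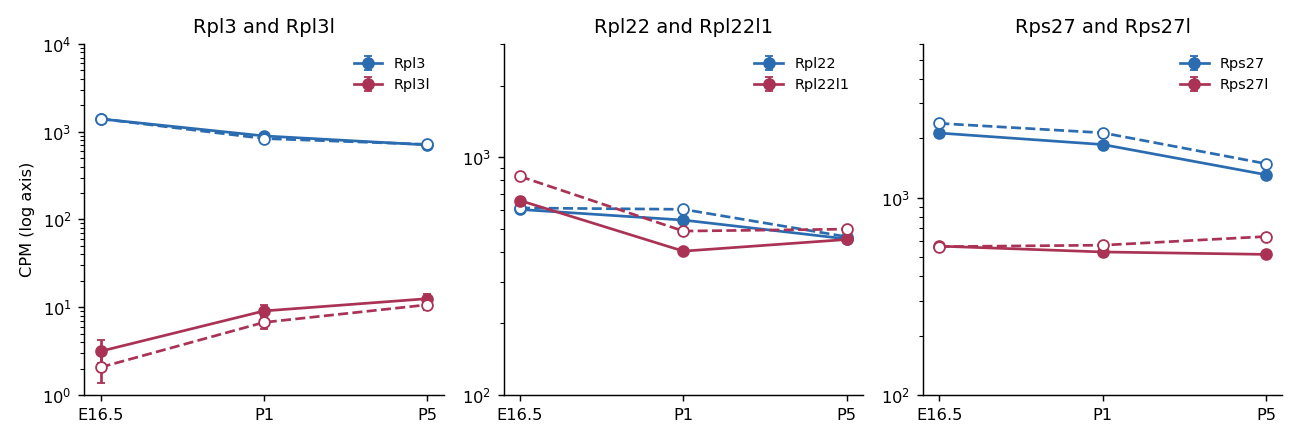
CPM on a log axis for 3 core members (blue) and their paralogs (red) by age, with solid lines and filled points for 2n, dashed lines and open points for 4n, and exact Poisson 95% intervals as error bars. Rpl3l stood at 3.15 and 2.07 CPM at E16.5 and at 12.5 and 10.7 at P5, Rpl3 at 1399 and 1405, then at 708 and 717, and Rpl22l1 was lowest at P1 in CPM.

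The other paralogs followed no common course. Rpl22l1, which can stand in for Rpl22, had 658, 403 and 451 CPM in 2n and 831, 489 and 499 CPM in 4n CMs. Its share of the UMIs of the pair was 52.2%, 42.5% and 49.9% in 2n and 57.6%, 44.7% and 51.8% in 4n CMs, lowest at P1 in both. Rpl22 itself ranged from 453 to 612 CPM. The log2 ratio of 4n to 2n for Rpl22l1 was 0.34, 0.28 and 0.14 over the 3 ages, above 0 also after the shift of the median of ratios, which is at most 0.10 in size between ploidies.

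Rps27l, a target of p53 in other cells, had 567, 530 and 515 CPM in 2n and 564, 574 and 635 CPM in 4n CMs, and made up 21.1% of the UMIs of Rps27 and Rps27l in E16.5-2n and 28.3% in P5-2n. Rpl36al had 568 to 697 CPM, and its share of the pair with Rpl36a was 39.0% in E16.5-2n and 45.0% in P5-2n. Rpl7l1, a relative of Rpl7, had 69.3, 41.2 and 34.5 CPM in 2n and 59.2, 37.8 and 36.8 CPM in 4n CMs. Rpl6l, annotated as a processed pseudogene, had 63.5 to 110 CPM and made up 6.70% to 7.88% of the UMIs of Rpl6 and Rpl6l. Rpl39l had 1 to 6 UMIs per library, and Rps19bp1 41.5 to 57.2 CPM.

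Near copies limit what can be said of some members. In the last 400 bases of the transcript 55 of 86 members had at least one 100-base stretch in common with a transcript of another gene, and in 28 this held for over 50% of such stretches. It held for 98.4% in Rps27 and 89.5% in Rps27rt, which share with each other, for 95.3% in Rps12 and for 80.4% in Rpl3. In Rpl10 and Rpl36a it held for 100%, in Rps6 for 86.0%, in Rpl23a for 83.1% and in Rpl7a for 82.7%. It held for 74.1% in Rpl36al and for 39.9% in Rpl22l1. The values of such genes, and the shares of pairs that hold them, are uncertain. Rpl3l, Rpl4, Rpl6, Rpl15, Rpsa and Rps27l had no stretch in common with another gene.

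The 4n libraries had the higher ribosomal share at each age. Summed over members, the log2 ratio of 4n to 2n was 0.07 at E16.5, 0.15 at P1 and 0.06 at P5 in CPM, and under the median of ratios it was -0.02, 0.05 and 0.02. The median member had 0.06, 0.15 and 0.04, against 0.04, 0.07 and 0.02 for all genes. None of the 85 members was 1.5-fold higher in 4n, against 12.6%, 13.8% and 5.67% of all genes over the 3 ages. Rpl3l alone was 1.5-fold lower, at E16.5, against 2.52% of all genes there, 0.797% at P1 and 3.84% at P5. In CPM 49 of 85 members were higher in 4n at all 3 ages (57.6%, against 27.2% of all genes), and under the median of ratios 18 were (21.2%, against 18.1%).

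At E16.5 and P1 the ploidy difference was smaller without the CMs that carried markers of other cells. The summed ratios were then 0.03 at E16.5, 0.07 at P1 and 0.06 at P5. The libraries that held most such cells were E16.5-4n and P1-4n, in which fibroblast markers also took the larger share, whereas at P5 these markers took 0.0263% and 0.0360%. The part of other cells in the remaining difference was not tested.

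Some members differed more between ploidies than the rest. Rpl35, which lies at the exit of the nascent chain, had 757, 594 and 475 CPM in 2n and 868, 738 and 704 CPM in 4n CMs. Its log2 ratio of 4n to 2n was 0.20, 0.31 and 0.57 over the 3 ages, with an interval of 0.53 to 0.61 at P5, and 74.1% of its end stretches occur in 3 other genes. Rps24 had 792 CPM in P5-2n and 978 in P5-4n, a log2 ratio of 0.30.

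Rps19, mutated in Diamond-Blackfan anaemia, had 1736 CPM in E16.5-2n against 2114 in E16.5-4n, a log2 ratio of 0.28, and Rps16 had 991 and 1151 CPM there. At P1 Rps12 had the highest log2 ratio of any member, 0.32, with 607 and 760 CPM. On the other side, Rpl7a had 876 CPM in E16.5-2n against 810 in E16.5-4n, and Rpl23a had 934 CPM in P5-2n and 783 in P5-4n.

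Cells with mitosis markers gave no common direction. Among CMs of 2000 to fewer than 4000 UMIs, those with at least 2 UMIs of 12 mitosis markers had ribosomal shares of 11.5%, 9.76% and 8.42% in 2n, against 11.3%, 9.25% and 8.30% in CMs with none. In 4n CMs the shares were 11.9%, 10.7% and 8.74% with the markers and 12.5%, 10.4% and 8.76% without. The share was higher with the markers in 4 of 6 libraries.

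Genes that build or serve the ribosome were set beside the members. Of 27 ribosome biogenesis genes 15 were at least 1.5-fold lower in CPM from E16.5 to P1 in 2n and 14 in 4n CMs, against the 33.3% and 30.9% of all genes given above, and none was higher. Their median log2 ratios were -0.68 and -0.63, which stay below 0 after the shift of 0.33. Nop56 and Nop58 are core proteins of the box C/D snoRNPs. Nop56 had 56.5 CPM in E16.5-2n against 19.4 in P1-2n, and Nop58 had 95.2 and 34.5. Dkc1, the pseudouridine synthase of the H/ACA snoRNPs, had 31.2 and 14.1 CPM, and Rrp1b, a nucleolar protein, 8.55 and 3.59. In 4n CMs the log2 ratios of these 4 genes were -1.39, -1.49, -1.47 and -1.35. From P1 to P5 the medians of the list were -0.23 in 2n and -0.11 in 4n CMs, against -0.08 and -0.18 for all genes. At this step 2 genes of the list were lower in each ploidy, against 11.2% (2n) and 19.9% (4n) of all genes. After the shift of this step, 0.11 in 2n and 0.17 in 4n, the 2n median stays below 0 and the 4n median lies above 0.

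Of 18 other genes with TOP mRNAs, many of them for translation factors, 6 were at least 1.5-fold lower at P1 in each ploidy (33.3%). None was higher. Among the 6 in both ploidies were Hnrnpa1, Nap1l1 and Npm1, which are not translation factors. Their medians were -0.43 and -0.38. Of all genes with at least 100 UMIs 33.3% and 30.9% were lower, with medians of -0.34 and -0.29. Of the genes with at least 10000 UMIs, which most of these 18 reach, 20.9% and 21.5% were lower, with medians of -0.22 and -0.17. Whether the list differs from either background was not tested. Hnrnpa1, an RNA-binding protein, had 403 CPM in E16.5-2n against 228 in P1-2n, Nap1l1, a histone chaperone, had 158 and 78.6, and Eef1g, a subunit of an elongation factor, had 572 and 342. Npm1, a nucleolar chaperone that is in the biogenesis list too, had 752, 427 and 306 CPM in 2n CMs. Fau, whose product holds a ribosomal protein fused to a ubiquitin-like part and which the rule does not reach, had 705, 591 and 503 CPM in 2n and 803, 738 and 559 CPM in 4n CMs.

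Eef1a1, which brings aminoacyl-tRNA to the ribosome, had 3673, 2381 and 1556 CPM in 2n and 3289, 2473 and 1644 CPM in 4n CMs. Its muscle and nerve paralog Eef1a2 had 14.1, 19.3 and 51.8 CPM in 2n and 12.8, 21.7 and 31.3 CPM in 4n CMs. Of the UMIs of the pair Eef1a2 made up 0.382%, 0.806% and 3.22% in 2n and 0.387%, 0.871% and 1.87% in 4n CMs. Like Rpl3l within its pair, Eef1a2 was a minor form with a larger share at each later age.

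Among 12 regulators with enough UMIs, 4 were 1.5-fold lower from E16.5 to P1 in 2n and 3 in 4n CMs, which is near the background of 33.3% and 30.9%. Mycn, which drives genes of ribosome production in growing tissue, had 31.4, 4.62 and 4.41 CPM in 2n and 29.6, 6.81 and 4.29 CPM in 4n CMs. Myc had few UMIs, 107 in P1-4n and 26 in P5-4n. Rps6kb1, the S6 kinase, had 38.9 CPM in E16.5-2n against 24.1 in P1-2n, and 44.8 and 24.3 in the 4n libraries. Maf1, a repressor of RNA polymerase III, had 76.6 CPM in P1-2n against 34.7 in P5-2n, and 68.8 and 37.0 in 4n CMs. Larp1, which binds TOP mRNAs, had 28.8 to 31.1 CPM in the 6 libraries.

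The mitochondrial ribosome has nuclear-encoded proteins of its own, and the 77 genes of this group took 1.01% to 1.10% of UMIs in every library. Their median log2 ratios were -0.11 and -0.12 from E16.5 to P1, and 0.01 and 0.11 from P1 to P5, in 2n and 4n CMs in CPM; the median of ratios makes the first pair positive. At the first step 5 and 6 of the 77 genes were at least 1.5-fold lower, fewer than the background of 33.3% and 30.9% would give, Mrps22 among them with 64.1 CPM in E16.5-2n against 37.8 in P1-2n. At the second step none was lower, against 11.2% and 19.9%, and none (2n) and 2 (4n) were higher, against 10.8% and 5.77%. Mrpl53 had the largest ratio of the group, 1.66 between ploidies at P5, from 12 and 39 UMIs. The mitochondrially encoded mRNAs, which this ribosome translates, had medians of 0.92 and 0.99 from E16.5 to P1.

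**Figure D5:**
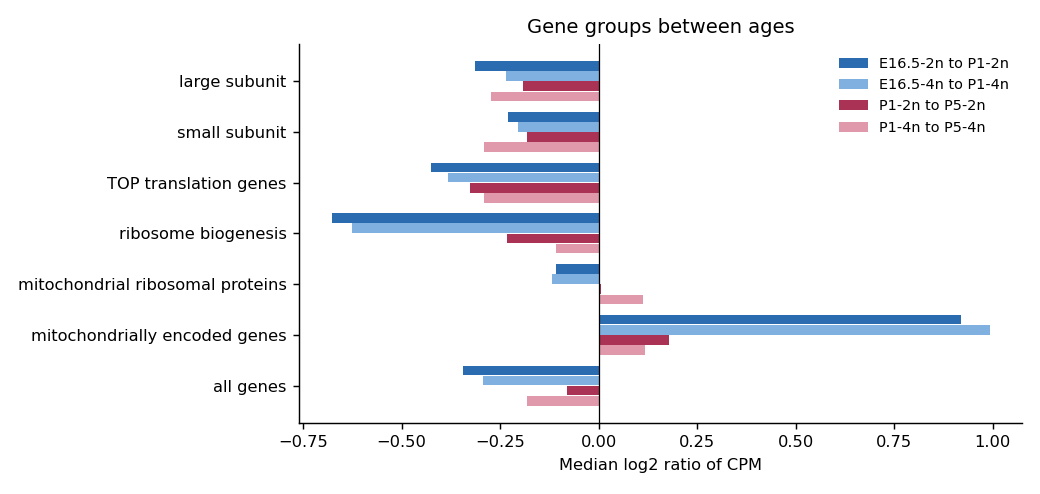
Median log2 ratio of CPM for 6 gene groups and for all genes with at least 100 UMIs, in 4 comparisons between ages (bars, coloured by comparison). Ribosome biogenesis genes had the lowest medians of these groups from E16.5 to P1, -0.68 and -0.63 in 2n and 4n CMs, mitochondrial ribosomal proteins had -0.11 and -0.12, and all genes -0.34 and -0.29; scaled by the median of ratios the bars from E16.5 to P1 move right by 0.33, which turns the medians of the subunits positive.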

How the data were processed

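The 6 libraries were used. Per the labels and the methods of the study, left ventricular cells were fixed in methanol, sorted for MYH1 and Hoechst, pooled and sequenced with 10x Genomics 3′ chemistry. The submitters' processing notes name Cell Ranger, STAR and Seurat 2.3.0. The counts deposited by the authors are whole UMIs per gene and cell (mm10, GRCm38), not normalized, from confidently mapped reads. UMIs of CMs were summed per library in Python 3.11.15 (numpy 2.4.6, scipy 1.17.1) and divided by the CM total of the library to give CPM. With 1 library per condition no test was run. A difference of 1.5-fold in CPM was counted among genes with at least 100 UMIs. Shares carry exact Clopper-Pearson, CPM exact Poisson and log2 ratios exact binomial 95% intervals, which cover counting error only, and a count of 0 was taken to allow 3. The calculations were tested on simulated counts drawn from the distributions that the intervals assume. These counts hold no spread between animals, cells or libraries. The members, lists and comparisons were chosen with earlier results of these data known. Genes were named as paralogs, as the 5 members of highest or lowest mean CPM, as the 3 of highest or lowest ratio in a comparison, and as up to 4 genes of largest ratio in other lists, with Eef1a1 and Eef1a2. Rplp0, Rplp2, Rpl15, Rps6, Rpl22, Rpl36a, Rps21 and Larp1 were named after their values were seen. Some genes that this rule takes are not reported here. Coding lengths and shared stretches were taken from GENCODE vM21 and promoter windows from RefSeq. Protein sequences were not analysed here, and no doublet caller was run. A list of gene symbols and a table of the authors' own comparison between groups of cells were not used. Alternatives were other cell filters, totals, scalings, UMI minimums and folds.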

Additional observations from a re-analysis of the deposited data

Results flagged for a closer look

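In 4 members the same contrast had opposite signs past a minimum log2 ratio in CPM. It was 0.1 on each side for steps compared between ploidies, and 0.2 for ploidy ratios compared between ages. Smaller differences of opposite sign, such as that of Rpl38 from E16.5 to P1, are not listed. These differences were not tested, since each condition is 1 library. The log2 ratio of P1 to E16.5 for Rps21 was -0.14 in 2n and 0.15 in 4n CMs. The log2 ratio of P5 to P1 for Rpl27 was 0.15 in 2n and -0.24 in 4n CMs. The log2 ratio of 4n to 2n was 0.31 at P1 and -0.30 at P5 for Rps26, and 0.20 at P1 and -0.23 at P5 for Rps27rt. Under the median of ratios, which moves the step from E16.5 to P1 by 0.33, Rps21 was above 0 in both ploidies. Under it Rpl27 and Rps27rt kept opposite signs, but Rpl27 in 4n CMs and Rps27rt at P1 fell short of the minimum. Rps26 stayed past it on both sides. Rpl27, Rps26 and Rps27rt have 86.0%, 46.5% and 89.5% of their 100-base end stretches in common with other genes, and Rps21 has none.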

How the results depend on the processing

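No paired analysis was possible because each condition is 1 library without numbered replicates. The 2n and 4n libraries of an age come from the same litters, each ratio of 4n to 2n was taken within an age, and no test was run over the 3 ages, which are different conditions. Below, shares are in the order 2n then 4n within each age from youngest to oldest, and log2 ratios in the order of the 4 age steps (first and second step in 2n, first and second step in 4n) and then of 4n to 2n from youngest to oldest. The first step is from E16.5 to P1, the second from P1 to P5.

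Scaled by the median of ratios, the summed log2 ratios were 0.054, -0.050, 0.13, -0.079, -0.019, 0.052 and 0.023 and the medians 0.043, -0.068, 0.10, -0.10, -0.029, 0.054 and 0.0090, so that both first steps and the E16.5 ploidy ratio reversed, and 0 members were lower at either first step. Lower there were 17.2% (2n) and 15.4% (4n) of all genes. This scaling sets the typical gene, which is lower in CPM at P1, to no difference. With the 50 most abundant other genes out of the total, shares were 15.7%, 16.1%, 15.2%, 16.5%, 13.99% and 14.3%, the summed ratios -0.044, -0.12, 0.038, -0.21, 0.041, 0.12 and 0.035, and the medians of the first step -0.055 (2n) and 0.016 (4n), of the second step in 4n -0.23, and of ploidy 0.031 at E16.5 and 0.021 at P5. The first step in 4n reversed and 0 members were lower at either first step, against 21.3% (2n) and 18.6% (4n) of all genes. With the mitochondrially encoded genes out of the total, shares were 12.6%, 13.2%, 11.4%, 12.7%, 10.3% and 10.8%, summed ratios -0.15 and -0.14 in 2n, -0.063 and -0.23 in 4n and 0.16 (P1) and 0.064 (P5) for ploidy, first-step medians -0.16 and -0.084, and 2 members were lower at each first step, against 25.9% (2n) and 23.2% (4n) of all genes.

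Without CMs carrying markers of other cells, shares were 11.6%, 11.7%, 9.45%, 9.88%, 8.34% and 8.70%, summed ratios -0.29, -0.18, -0.25 and -0.18 for the steps and 0.020 and 0.065 for ploidy at E16.5 and P1, and medians -0.28 and -0.19 for the 4n steps and 0.023 and 0.061 for ploidy at E16.5 and P1. With Acta2 and Cspg4 not counted, a choice made after seeing the data, shares were 11.5%, 11.7%, 9.46%, 9.93%, 8.41% and 8.75%, summed ratios -0.17 for the second step in 2n, -0.24 and -0.18 for the 4n steps, and 0.029 and 0.071 for ploidy at E16.5 and P1, and medians -0.26, -0.19, 0.026 and 0.069. Under both filters 0 members were lower in 4n at E16.5 and 0 higher at the second step in 4n. Of all genes 6.47% and 7.75% were under the first filter, and 4.05% and 6.95% under the second.

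In CMs of 2000 to fewer than 4000 UMIs, shares were 11.4%, 12.2%, 9.28%, 10.5%, 8.32% and 8.75%, summed ratios -0.29, -0.16, -0.21, -0.26, 0.098, 0.18 and 0.073, and the median for ploidy at E16.5 was 0.091. There 1 member was lower at the second step in 4n and 0 higher, 0 were lower in 4n at E16.5 and 1 at P1, and 1 was higher in 4n at P5. In the same order, the shares of all genes were 20.5% and 7.1%, 3.23% and 2.79%, and 10.1%. As means over cells, shares were 11.7%, 12.2%, 10.6% (P1-4n), 8.44% and 8.82%, and summed ratios -0.30, -0.17, -0.21, -0.26, 0.069, 0.15 and 0.064. With no CM filter shares were 11.6%, 12.2%, 10.6% (P1-4n) and 8.52% (P5-2n), with 2 UMIs of each CM marker 12.1% (E16.5-4n), and without paralogs and Rps19bp1 11.3%, 11.9%, 9.33%, 10.3%, 8.31% and 8.65%.

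At a limit below 1.5-fold, 5 parts to 4, members lower were 33 and 12 in 2n, 27 and 32 in 4n, and 1 for ploidy at P1, and 1 was higher at the second step in 2n and for ploidy at each age. Of all genes 51.7% and 26.9% were lower in 2n, 48% and 36.3% in 4n, and 4.36% for ploidy at P1. Higher were 18.9% at the second step in 2n, and 23.4%, 24.3% and 13.4% for ploidy. At a fold of 2, 0 were lower at either first step or in 4n at E16.5, and 0 higher at the second step in 4n. Of all genes 14.7% (2n) and 12.6% (4n) were lower at the first step and 0.535% in 4n at E16.5. At the second step in 4n 2.71% were higher. With a minimum of 1000 UMIs, or of 10000 (chosen after seeing the data), 0 were lower in 4n at E16.5 and 0 higher at either first step or at the second in 4n, as Rpl3l does not reach these minimums. At 1000 UMIs 0.634% of all genes were lower in 4n at E16.5, and 4.73%, 5.72% and 4.54% higher at these steps. The shares at 10000 UMIs are given above. With any gene seen in both libraries, 2 were higher at the first step in 2n, 1 at the second in 2n and 1 in 4n at E16.5 and at P1, and 1 was lower at the second step in 4n and in 4n at P5. In the same order, 9.1%, 15.1%, 17.9% and 21.2% of all genes were higher, and 26.2% and 8.74% lower. Of the values of single named genes under these alternatives 228 lay inside the counting interval of the reported value and 108 outside, and none of those past 1.5-fold changed sign. Depth limits Rpl3l, Rpl39l, Myc and Mrpl53, which rest on few UMIs.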
